A study of Homo sapiens with 3 samples.

Results

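Aminoacyl-tRNA synthetases are the enzymes that join each amino acid to its transfer RNA, the step that supplies the ribosome with charged tRNA. Human cells use one set in the cytosol and another, mostly encoded by separate nuclear genes, in mitochondria, and several cytosolic enzymes sit together in a multisynthetase complex. Many cytosolic synthetase genes belong to the amino acid response, in which the transcription factor ATF4 raises genes for amino acid synthesis, transport and charging when amino acids run short or the endoplasmic reticulum is stressed. Mitochondrial synthetases charge the tRNAs used to translate the few proteins encoded by mitochondrial DNA.

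The synthetases were chosen by a rule that reads only the gene name on the array: a one-letter amino acid code followed by ARS, with or without a suffix, or EPRS, FARSLA or FARSLB. The rule took 46 of 41000 probes, under 38 array names. These names stand for 37 synthetase genes, 21 cytosolic and 16 mitochondrial. GARS and KARS, for glycine and lysine, each encode both the cytosolic and the mitochondrial enzyme, and they were counted as cytosolic. Names are those printed on the array, and current symbols mostly add a 1 to the cytosolic name (CARS is now CARS1). The probe named HARS2 carries the accession of DTD1, which encodes a D-aminoacyl-tRNA deacylase, so it was left out of the synthetases (30681, 21001 and 34656 a.u. on the 3 arrays named below, in the order OM, MB and NM), and the mitochondrial histidyl enzyme was read from the probe named HARSL. FARSLA and FARSLB encode the alpha and beta subunits of the cytosolic phenylalanyl enzyme, VARSL, RARSL, TARSL1 and AARSL encode mitochondrial enzymes, and TARSL2 encodes a second cytosolic threonyl enzyme. Another 2 probes, named FARSLB and HARS2, matched no current gene and were not well above background on any array, which leaves 43 synthetase probes. CARS2, the mitochondrial cysteinyl gene, carries the name FLJ12118 on the array and so lies outside the naming rule.

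Expression was measured in 1205Lu cells, an established human metastatic melanoma line obtained from a lung metastasis of WM793 xenografts in mice. The original monolayer (OM) had grown for 14 days in RPMI-1640 with 10% fetal calf serum. The melanoma bodies (MB), adherent multicellular 3D structures, had grown for 14 days in human embryonic stem cell (hESC) medium, in which DMEM/F-12 is combined with KnockOut serum replacement at 20% and supplied with added nonessential amino acids, L-glutamine and 2-mercaptoethanol. The new monolayer (NM) had spent 14 days as bodies in hESC medium and then 10 days in RPMI-1640 with 10% fetal calf serum, and residual bodies were removed before RNA was taken. Each population was measured on 1 array, so no difference below has a replicate check, no test across samples was possible and no p-value is given. Growth form, medium and the single culture behind each array cannot be told apart, and neither can fewer cells of a kind and less RNA per cell. Comparing MB with OM addresses which genes change as cells form bodies, comparing MB with NM addresses what returns after bodies are replated, and comparing NM with OM shows what still differs once monolayer growth is restored.

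Signals are background-subtracted intensities in arbitrary units (a.u.), given unscaled, while ratios were taken after scaling to 3 housekeeping genes (GAPDH, ACTB and HSP90AA1). Their mean signal was 131555 a.u. on OM, 128596 a.u. on MB and 115402 a.u. on NM. Single spots of probes printed 10 times per array gave a log2 SD of 0.06 (1.04-fold) in the MB over OM ratio, 0.06 in MB over NM and 0.07 in NM over OM. This spread is technical and covers spot-to-spot error only. Signals were well above background on all 3 arrays for 36 of the 37 genes, the exception being MARS2, and no synthetase probe was saturated or marked as an outlier. Of 8 melanocyte lineage genes, SOX10 (6254, 9382 and 4887 a.u. on OM, MB and NM), S100B (25155, 43760 and 13307 a.u.), MITF (423, 718 and 551 a.u.), PMEL (286, 209 and 271 a.u.) and DCT (66.7, 62.8 and 64.1 a.u.) were well above background on every array. MLANA was well above it on OM and MB only, and the pigment enzyme genes TYR and TYRP1 on none. Of 8 listed markers of epithelial, blood, endothelial and stromal cells, the stromal marker COL1A1 was not among the genes read. KRT5, EPCAM, PTPRC and CDH5 were not well above background on any array. The blood marker CD3E was dim on all 3 (110, 84.8 and 87.4 a.u.). The endothelial marker PECAM1 (87.7 a.u.) and the stromal marker DCN (26.8 a.u.) were well above background on MB only, and the part of other cell types in the results was not tested.

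To show what the array read, the 60-base probes of 5 cytosolic synthetases with large differences are given 5′ to 3′ as printed on the array, all in lower case because no part of them was singled out. Positions are those in the deposited files (hg17), and a span wider than 60 bases means that the probe's ends lie apart in the genome. The positions are chr11:2995059-2995679 on the minus strand for CARS, chr7:30439131-30441430 on the plus strand for GARS, chr1:109492035-109492451 on the plus strand for SARS, chr12:56191888-56192086 on the plus strand for the dimmer of the MARS probes, and chr1:32914892-32914951 on the minus strand for YARS.
CARS: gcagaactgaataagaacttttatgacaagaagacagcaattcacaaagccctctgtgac
GARS: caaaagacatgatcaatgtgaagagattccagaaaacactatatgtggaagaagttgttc
SARS: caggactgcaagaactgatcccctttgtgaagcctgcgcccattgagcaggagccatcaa
MARS: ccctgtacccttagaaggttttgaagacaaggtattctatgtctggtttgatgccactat
YARS: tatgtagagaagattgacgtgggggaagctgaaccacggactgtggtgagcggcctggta

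MB had the lowest signal of the 3 arrays for 15 of 21 cytosolic and 3 of 16 mitochondrial synthetases. The share of all genes that were lowest on MB was not counted. Past 2-fold, 6 of 21 cytosolic genes were lower in MB than in OM (AARS, CARS, GARS, SARS, WARS and YARS), where 4.68% of 13597 measured genes were. Against NM the count was 9 of 21, the same 6 with EPRS, MARS and NARS, where 9.26% of 13483 genes were lower in MB. None of the 16 mitochondrial genes was past 2-fold lower in MB against either monolayer. With 4.68% and 9.26% of all genes lower past this limit, none of 16 is near the background. That count alone does not set the mitochondrial genes apart from all genes. In the other direction, 1 cytosolic gene (TARSL2) and 1 mitochondrial gene (MARS2) were past 2-fold higher in MB than in OM, where 7.48% of all genes were. Against NM, 3 cytosolic genes (FARSLA, HARS and TARSL2) and MARS2 were past 2-fold higher in MB, where 11.9% of all genes were. The 2 MB contrasts share the MB array, and each monolayer serves in 2 of the 3 contrasts, so the 3 contrasts are not independent of one another.

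**Figure D1:**
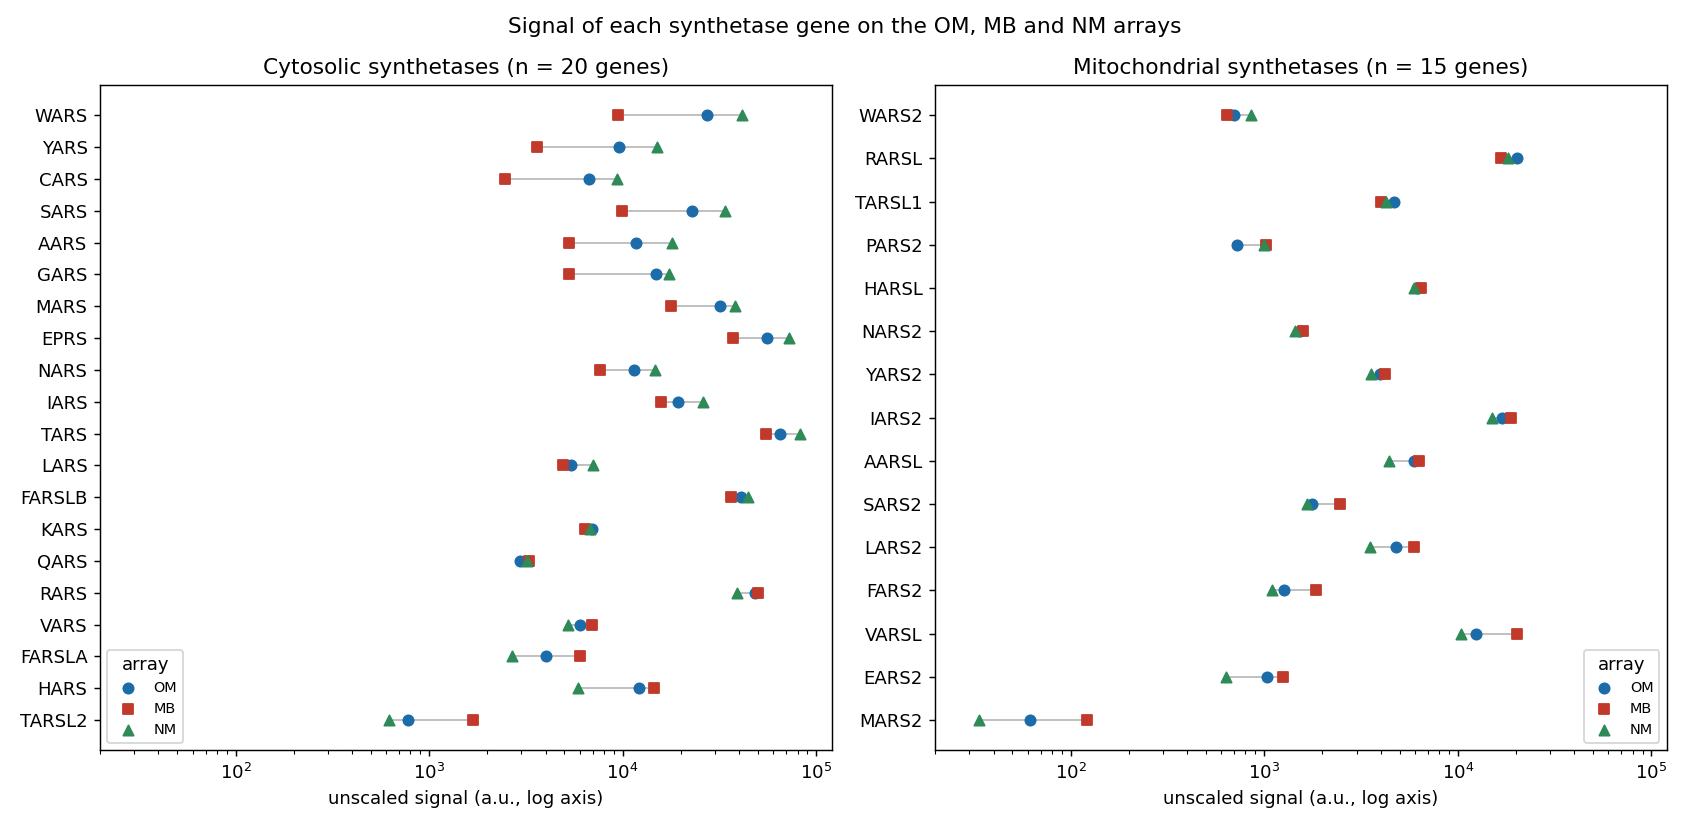
Unscaled signal in arbitrary units (log axis) of 20 cytosolic and 15 mitochondrial synthetase genes on the OM (circles), MB (squares) and NM (triangles) arrays, 1 array per population, ordered by the MB over NM ratio. MB was the lowest of the 3 arrays for 14 of these cytosolic genes and for 3 of these mitochondrial genes.

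Among the 21 cytosolic genes the median of the log2 MB over OM ratio was -0.21, beside 0.14 over all measured genes. For MB over NM it was -0.73, beside 0.05 over all genes, and for NM over OM it was 0.44, beside 0.10. The cytosolic median thus lay 0.35 below that of all genes in the first contrast and 0.78 below it in the second, and 0.34 above it in the third. Mitochondrial genes had medians of 0.16, 0.12 and 0.02, which differed from those of all genes by 0.01, 0.07 and -0.07. Below the all-gene median were 16 of 21 cytosolic and 8 of 16 mitochondrial genes when MB was set against OM, and 16 of 21 and 7 of 16 when it was set against NM. Cytosolic genes also varied more among themselves: for MB over NM they ran from -2.29 for WARS to 1.29 for TARSL2, while mitochondrial genes measured on both arrays ran from -0.57 for WARS2 to 0.82 for EARS2.

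**Figure D2:**
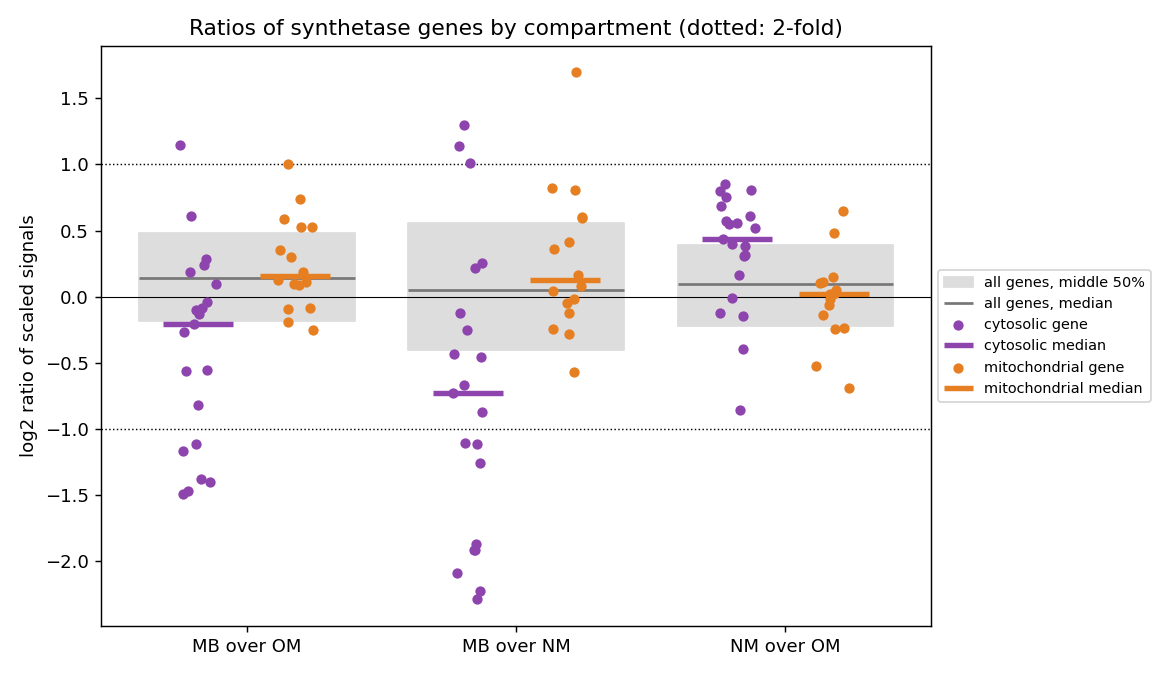
Log2 ratios of scaled signals for each cytosolic (purple) and mitochondrial (orange) synthetase gene in the 3 contrasts, with the group medians as thick bars, and the median and middle 50% of all measured genes in grey. The cytosolic median was -0.73 for MB over NM and 0.44 for NM over OM, while the mitochondrial medians were 0.12 and 0.02; MARS2 was not well above background on NM.

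The 6 genes past 2-fold below OM charge tryptophan, tyrosine, cysteine, glycine, serine and alanine, and each was highest on NM. WARS, the cytosolic tryptophanyl enzyme (chr14:99870794-99870853, minus strand), gave 27121 a.u. on OM, 9454 a.u. on MB and 41369 a.u. on NM. YARS, the tyrosyl enzyme, gave 9532, 3592 and 15058 a.u., and CARS, the cysteinyl enzyme, gave 6673, 2468 and 9394 a.u. All 3 genes were lowest on MB and highest on NM, and after scaling MB lay 2.80-fold below OM and 4.88-fold below NM for WARS, the widest gaps of any synthetase. The gaps were 2.59-fold and 4.67-fold for YARS, and 2.64-fold and 4.24-fold for CARS. Of all measured genes, 1.81% had an MB over NM ratio lower than that of WARS and 2.18% one lower than that of CARS.

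GARS, which charges glycine in both compartments, gave 14914 a.u. on OM, 5279 a.u. on MB and 17246 a.u. on NM, and MB was 2.76-fold below OM and 3.64-fold below NM. SARS, the seryl enzyme, whose product also feeds selenocysteine synthesis, gave 22789, 9929 and 33631 a.u. AARS, the alanyl enzyme (chr16:68845377-68845436, minus strand), gave 11688, 5284 and 17890 a.u. SARS and AARS showed the same order of arrays, with MB 2.24-fold and 2.16-fold below OM and each 3.77-fold below NM. None of the 6 genes reached the 5-fold limit that the study used for its own lists, which 0.618% of all genes passed downward in MB against OM and 1.34% against NM.

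MARS, the methionyl enzyme and a member of the multisynthetase complex, was measured by 2 probes. Its brighter probe (chr12:56196640-56196699) gave 31995 a.u. on OM, 17727 a.u. on MB and 38010 a.u. on NM, with MB log2 ratios of -0.82 against OM and -1.26 against NM. The other probe, the one printed above, gave 9784, 4301 and 15089 a.u., with ratios of -1.15 and -1.97. Both MARS probes were lowest on MB, but only the second was past 2-fold against OM. EPRS, a fused enzyme that charges glutamate and proline, gave 55889, 37210 and 72274 a.u. NARS, the asparaginyl enzyme, gave 11472, 7597 and 14698 a.u. For these 2 genes MB lay between 1.47-fold and 1.48-fold below OM and 2.16-fold below NM.

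Of the 8 cytosolic enzymes of the multisynthetase complex (EPRS, IARS, KARS, LARS, MARS, QARS and RARS among them), 0 were past 2-fold lower in MB than in OM and 2 were past it against NM, beside 6 and 7 of the 13 others. Of all genes, 4.68% and 9.26% were lower past this limit, so 0 of 8 is near the background. Their MB medians were -0.09 against OM and -0.55 against NM, compared with -0.56 and -1.11 for the 13 others. The non-enzymatic scaffold genes AIMP1, AIMP2 and EEF1E1 had medians of -0.15 and -0.17, and none was past 2-fold. By the structural class of the catalytic domain the difference was smaller, with an MB over NM median of -0.87 for class I and -0.45 for class II enzymes. These are descriptions of gene groups on 1 array each, with no test of the difference between them.

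Not every cytosolic enzyme was low in MB. HARS, the histidyl enzyme (chr5:140033921-140033980, minus strand), gave 12146 a.u. on OM, 14507 a.u. on MB and 5902 a.u. on NM. It was lowest on NM, with log2 ratios of 1.14 for MB over NM and -0.85 for NM over OM, and its second probe gave 1.14 and -0.90. FARSLA gave 4006, 5988 and 2667 a.u., also lowest on NM, while FARSLB, its partner subunit, gave 40775, 36331 and 44589 a.u. The alpha and beta subunits of the phenylalanyl enzyme thus differed in direction between MB and NM, with log2 ratios of 1.01 and -0.45. TARSL2 gave 782, 1692 and 619 a.u., and its MB signal exceeded OM by 2.21-fold and NM by 2.45-fold. TARS, the main threonyl enzyme, gave 65269, 55233 and 82141 a.u. and was lowest on MB, with log2 ratios of -0.21 and -0.73. RARS, QARS and VARS, for arginine, glutamine and valine, had MB log2 ratios between -0.12 and 0.25 against both monolayers. For the complex members IARS, LARS and KARS, the ratios lay between -0.26 and -0.08 against OM and between -0.87 and -0.25 against NM.

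On 1 array each, the scaled signals of most cytosolic synthetases differed between NM and OM, and the spread between cultures was not measured. In 15 of 21 cytosolic genes the scaled signals ran in the order MB, OM, NM from low to high, and in 14 of these both steps were larger than the technical SD. That order held for 3 of 16 mitochondrial genes, and for 1 of them beyond the technical SD. The share of all genes with this order was not counted, and the order depends partly on scaling. Without scaling KARS, one of the 15 cytosolic genes, was higher on OM (6907 a.u.) than on NM (6796 a.u.). No synthetase was past 2-fold between NM and OM in either direction, where 4.25% of all genes were lower and 5.07% higher in NM. At 1.5-fold, 6 cytosolic genes (AARS, CARS, IARS, SARS, WARS and YARS) were higher in NM, where 14.5% of all genes were. The highest was YARS, at 1.80-fold above OM, and HARS was the only cytosolic gene lower in NM by that limit, where 10% of all genes were. By the same limit PARS2 was higher and MARS2 lower in NM among mitochondrial genes. The new monolayer also had the lowest housekeeping mean of the 3 arrays, and without scaling the median of all genes moved from 0.10 to -0.09 for NM over OM. WARS, YARS, CARS, SARS and AARS were higher on NM than on OM in unscaled signal as well.

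Pairs of genes for the same amino acid show the contrast between compartments most directly. Of 17 such pairs, in which EPRS and FARS2 each appear in 2, the cytosolic gene had the lower MB over OM ratio in 13, with a median difference of -0.65 on the log2 scale. For MB over NM it had the lower ratio in 14, with a median difference of -1.05, and in 11 pairs the gap exceeded 2-fold in one direction or the other. For NM over OM the cytosolic gene had the higher ratio in 13 pairs, with a median difference of 0.47. Some MB over OM differences were smaller than the technical SD, such as threonine (-0.02) and phenylalanine by its alpha subunit (0.03). With quantile normalization the MB over OM count of pairs with the lower cytosolic ratio was 12.

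**Figure D3:**
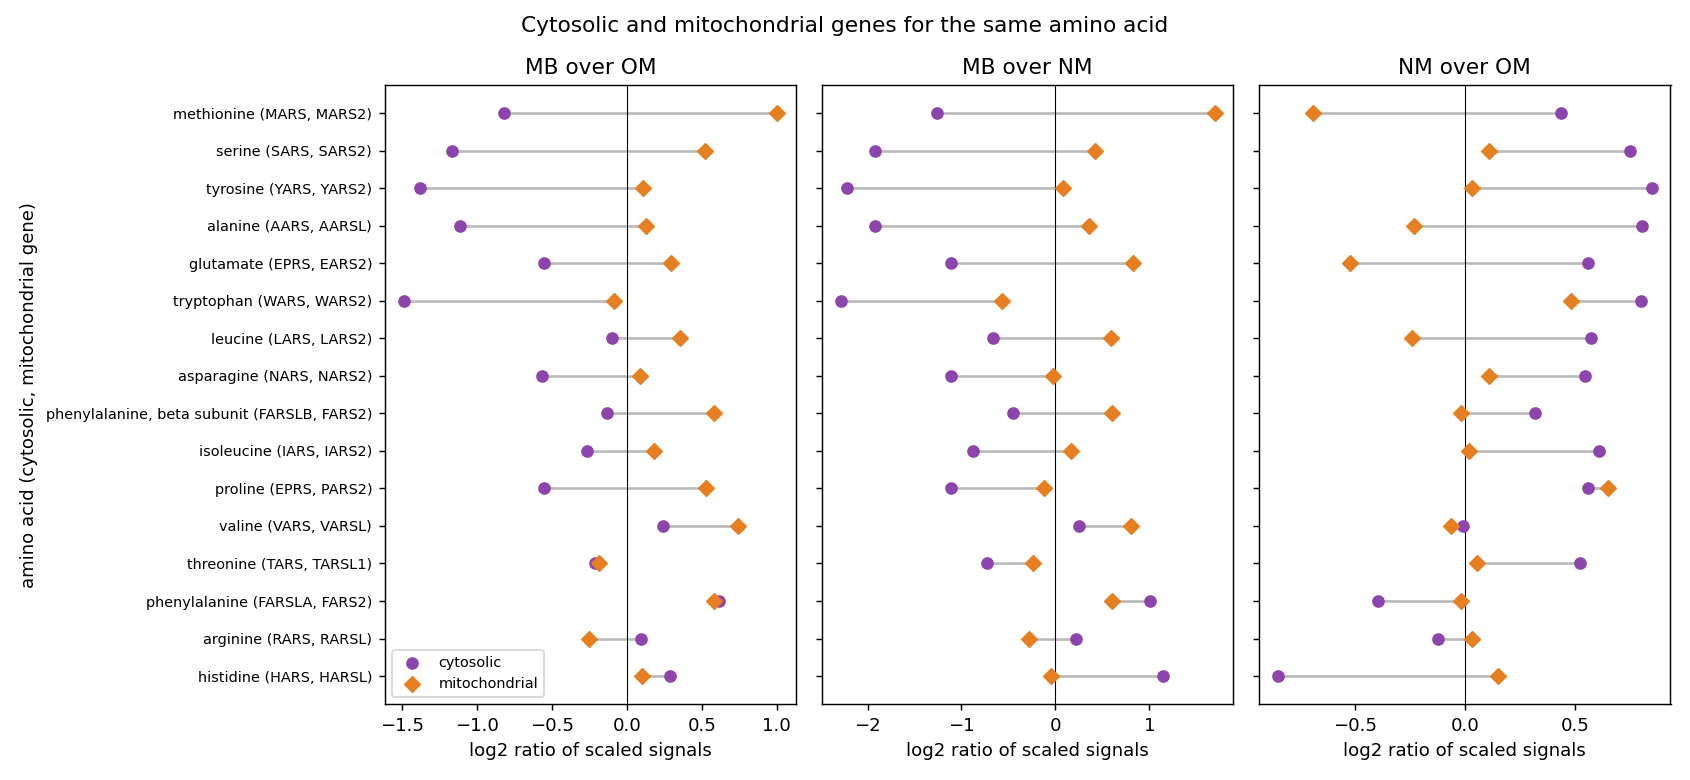
Log2 ratios of scaled signals of the cytosolic (circle) and mitochondrial (diamond) gene for the same amino acid in 16 pairs, joined by a line, in the 3 contrasts, ordered by the MB over NM difference. The cytosolic gene lies to the left in 13 of these 16 pairs for MB over OM and in 13 for MB over NM, and to the right in 12 for NM over OM; EPRS and FARS2 each appear in 2 pairs, and MARS2 was not well above background on NM.

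None of the mitochondrial partners of the lowest cytosolic genes was past 2-fold. SARS2, the mitochondrial seryl enzyme, gave 1757 a.u. on OM, 2471 a.u. on MB and 1661 a.u. on NM, so the serine pair differed by -1.69 against OM and -2.33 against NM. YARS2 gave 3980, 4201 and 3564 a.u., and the tyrosine pair differed by -1.49 and -2.30. AARSL gave 5912, 6315 and 4408 a.u., and the alanine pair differed by -1.24 and -2.28. In each of these 3 pairs the mitochondrial gene was highest on MB, the array where its cytosolic partner was lowest. For AARSL and YARS2 this depended on the processing. Across the alternatives their MB over OM log2 ratios ran from -0.18 to 0.15 and from -0.20 to 0.11. That of SARS2 ran from 0.22 to 0.53. WARS2, at 696, 641 and 854 a.u., was the one partner whose order of arrays was that of the cytosolic gene, though its MB over NM log2 ratio was -0.57 and that of WARS was -2.29.

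Other mitochondrial partners differed in direction, and EARS2 and VARSL were 1.77-fold and 1.75-fold higher in MB than in NM. NARS2 gave 1529, 1589 and 1446 a.u., EARS2 gave 1038, 1248 and 633 a.u., and PARS2 gave 720, 1017 and 993 a.u. NARS2 was within 0.11 of 0 in all 3 log2 ratios, whereas EARS2 was lowest on NM and PARS2 lowest on OM. HARSL, the mitochondrial histidyl enzyme, gave 6131, 6424 and 5967 a.u., and the histidine pair ran the other way, with HARS above it by 1.19 for MB over NM. FARS2 gave 1266, 1855 and 1096 a.u. and TARSL1 gave 4674, 4011 and 4256 a.u. The highest mitochondrial MB over OM ratio among genes well above background on all 3 arrays was that of VARSL, which gave 12427, 20317 and 10423 a.u. and was 1.67-fold above OM in MB. RARSL, the mitochondrial arginyl enzyme, had the lowest MB over OM ratio, at -0.25, from 20345, 16672 and 18207 a.u. The others without a partner past 2-fold included IARS2 (16868, 18739 and 14974 a.u.) and LARS2 (4770, 5953 and 3532 a.u.).

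MARS2, the mitochondrial methionyl enzyme, was the dimmest synthetase, at 61.9 a.u. on OM and 121 a.u. on MB, and 33.7 a.u. on NM, where it was not well above background. Its MB signal exceeded OM by 2.01-fold and NM by at least 3.24-fold with the signals as deposited. The values depended on the background correction: with normexp the log2 ratios were 0.51 against OM and 0.63 against NM, and with unsubtracted signals they were 0.64 and 0.86, all short of 2-fold. The methionine pair therefore rests on a dim probe, and its difference of -1.82 for MB over OM is the widest of the 17. The 2 probes named for CARS2's former name, FLJ12118, gave log2 ratios of 0.07 and -0.05 for MB over OM, and the brighter of them gave 52091 a.u. on OM, 53483 a.u. on MB and 36052 a.u. on NM. CARS and CARS2 thus differed in the same direction as most pairs.

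Of the 37 genes, 6 had a second probe well above background. The log2 ratios of the 2 probes differed by a median of 0.11 (MB over OM), 0.14 (MB over NM) and 0.16 (NM over OM). The largest gap, 0.71 for MB over NM, was that of MARS. These gaps exceed the technical SD of single spots, so a difference of that size between genes is within what a change of probe alone produced here. The 6 genes past 2-fold below OM were each measured by 1 probe.

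**Figure D4:**
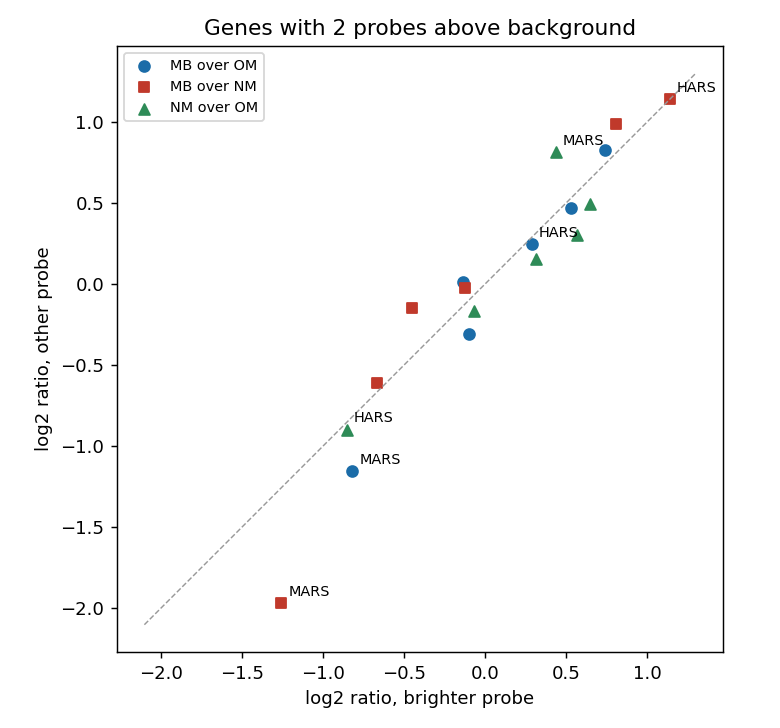
Log2 ratio from the brighter probe (x axis, the value used for the gene) against that from the other probe (y axis) for the 6 genes with 2 probes, in the 3 contrasts, with the dashed line marking equal values. HARS lies on the line, and MARS lies off it, by up to 0.71 for MB over NM.

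Promoters of the synthetases were searched for the letters TGATGNAA on both strands, where N is any base. These letters are the core of the C/EBP-ATF composite element, also called the amino acid response element, to which ATF4 binds. The windows ran from 250 bases before to 50 bases after each gene start in RefSeq (GRCh38.p14), and windows were matched for 29 of the 37 genes. TGATGNAA was in 7 of 16 cytosolic genes with a window (43.8%), in 1 of 13 mitochondrial genes (7.69%) and in 1217 of 27305 genes in all (4.46%). The narrower TGATGCAA was in 6 of the 16 (37.5%), in 0 of the 13 and in 295 genes in all (1.08%). The 7 cytosolic matches are shown with the motif in capitals, each read 5′ to 3′ on the strand that carries these letters, because they show how alike the core and how unlike the flanks are.
AARS: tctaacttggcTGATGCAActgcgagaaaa
CARS: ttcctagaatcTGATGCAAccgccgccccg
GARS: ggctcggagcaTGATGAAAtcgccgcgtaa
IARS: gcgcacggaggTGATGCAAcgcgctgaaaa
MARS: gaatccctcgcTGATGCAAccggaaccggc
NARS: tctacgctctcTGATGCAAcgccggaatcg
TARS: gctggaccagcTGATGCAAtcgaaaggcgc

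These runs lie in GRCh38.p14 at chr16:70289675-70289704 for AARS, chr11:3057407-3057436 for CARS, chr7:30594834-30594863 for GARS, chr9:92293692-92293721 for IARS, chr12:57488053-57488082 for MARS, chr18:57621804-57621833 for NARS and chr5:33440956-33440985 for TARS. NARS carries the motif on the strand of the gene and the other 6 carry it on the opposite strand. In 5 of the 7 genes the first base of the motif, read along the gene strand, lies within 14 bases of the gene start. It is 33 bases before the start in GARS and 187 bases before it in AARS. A gene with more than 1 window was counted if any of them matched. CARS, GARS and TARS each have 2 windows, for different starts, and carry the motif in 1 of them. The 1 mitochondrial match, YARS2, has the motif 197 bases before the start. The CARS promoter is given as an example, on the strand of the gene from 250 bases before the start to 20 bases after it (chr11:3057404-3057673, minus strand), with the motif in capitals as its reverse complement.
CARS: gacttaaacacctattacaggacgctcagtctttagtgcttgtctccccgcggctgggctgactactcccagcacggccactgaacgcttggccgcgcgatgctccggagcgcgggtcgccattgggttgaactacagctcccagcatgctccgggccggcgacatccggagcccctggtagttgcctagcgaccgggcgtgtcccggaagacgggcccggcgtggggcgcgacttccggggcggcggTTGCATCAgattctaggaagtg

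All 7 cytosolic genes with the motif had lower signals in MB than in both monolayers, with medians on the log2 scale of -0.82 against OM and -1.26 against NM. The 9 cytosolic genes whose windows lack it had medians of -0.08 and -0.25. Past 2-fold lower in MB than in OM were 3 of the 7 and 2 of the 9, where 4.68% of all genes were. Against NM the counts were 5 and 3, where 9.26% of all genes were. WARS and SARS, both among the 6 genes past 2-fold below OM, have no match in their windows, so the low MB signals were not limited to genes with these letters in the window. YARS, also among the 6, had no matched window and is in neither group. TARS and IARS have the motif and were not past 2-fold against either monolayer. A match describes letters in a window, and binding was not measured.

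**Figure D5:**
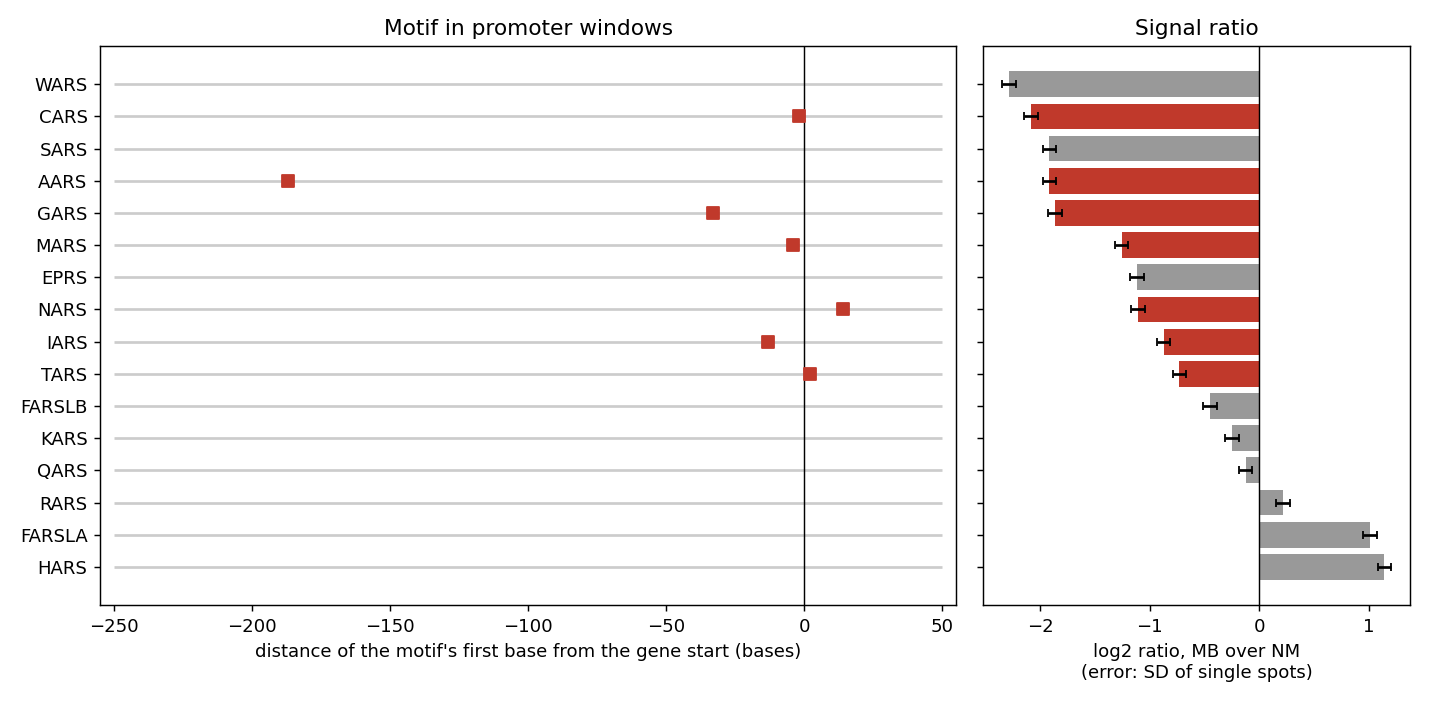
Left, distance in bases of the first base of TGATGNAA, read along the gene strand, from the gene start (squares). The promoter windows are those of the 16 cytosolic genes with a window, ordered by MB over NM ratio. Right, log2 ratio of scaled signals, MB over NM, with genes that hold the motif in red and the others in grey, and error bars of 1 technical SD of single spots; the 7 genes with the motif lie between -2.08 and -0.73.

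Other genes of protein synthesis were counted beside the synthetases. Of 20 measured genes of mitochondrial translation other than synthetases, 0 were past 2-fold in MB against either monolayer in either direction, with medians of 0.15 against OM and 0.03 against NM. Of all genes, 4.68% were lower and 7.48% higher in MB against OM, and 9.26% lower and 11.9% higher against NM. Of 29 cytosolic translation factors, 0 were past 2-fold lower in MB than in OM and 2 were against NM, near the shares of all genes (4.68% and 9.26%), with medians of -0.01 and -0.08. These 2 were EIF2S2, a subunit of the factor that brings the initiator tRNA (7683, 3770 and 9096 a.u. on OM, MB and NM), and EIF4A2, an initiation helicase (49064, 36766 and 80902 a.u.). EIF4G1, an initiation scaffold, was lowest on NM (41709, 47489 and 18795 a.u.) and was the only one past 2-fold higher in MB than in NM, where 11.9% of all genes were.

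The genes of the amino acid response, apart from the synthetases, lay lower in MB than the cytosolic synthetases did. Of 30 measured, 21 were past 2-fold lower in MB than in OM and 23 against NM, where 4.68% and 9.26% of all genes were, with medians of -1.53 and -2.24. None was past 2-fold higher in MB than in OM (7.48% of all genes), and 1 was against NM (11.9%). The 5 with the lowest MB over OM ratios were CHAC1, STC2, PSAT1, DDIT4 and ATF3, from -3.83 for CHAC1 to -2.42 for ATF3. ATF4 itself gave 209955 a.u. on OM, 71217 a.u. on MB and 233007 a.u. on NM, with log2 ratios of -1.53 and -1.87. In NM, 10 of the 30 were past 2-fold higher than in OM, where 5.07% of all genes were, while no cytosolic synthetase was. This list, like the choice of the synthetases, was made with earlier results of these arrays known, so its count is a description beside that of the synthetases and not independent evidence of a direction.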

How the data were processed

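RNA of 3 populations of 1205Lu cells was amplified, labelled with Cy3 and hybridised to 3 one-colour Agilent arrays on 1 slide. The authors deposited the intensity of each spot from Feature Extraction 9.5.3.1, local background subtracted, linear and unscaled. The depth of an array is set by its signal, and 1 array per population limits the precision.

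Control and outlier spots were left out and spots of a probe averaged. Arrays were scaled to OM by the arithmetic mean of GAPDH, ACTB and HSP90AA1 (10 spots each). A gene was read from the probe with the highest mean signal and counted as measured in a contrast if well above background on at least 1 of its 2 arrays. Dim probes give lower bounds. Calls were made at 2-fold, which is a description and no test. Array names were matched by accession to RefSeq symbols (GRCh38.p14, names and promoter windows only), while probe positions are those of the files in hg17. Where a promoter window was not matched, the gene is left out of the motif counts. Members and gene lists were chosen with earlier results of these data known. Genes named are all synthetases past 2-fold, the extremes of each compartment, partners for the same amino acid, and at most 5 per list. Some genes are counted but not reported here by name. Calls were checked on simulated data, which tests only that the fold limit is applied as stated. That check says nothing about the spread between cultures. Alternatives were other scalings (75th percentile, quantile, none, spike-in), normexp and unsubtracted signals, other probe and compartment rules, outlier spots kept, the deposited value table, and 1.5-fold and 5-fold limits. Python 3.11.15, numpy 2.4.6, pandas 2.3.3, matplotlib 3.10.9 and R 4.3.3 with limma 3.58.1 were used.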

Additional observations from a re-analysis of the deposited data

How the results depend on the processing

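Across 17 alternatives, 275 of 317 recomputed medians and counts kept their value within the technical SD or within 1.5 times the count. Another 42 moved and 0 reversed. Part of this was fixed in advance. Multiplying an array by a constant leaves pair counts and medians relative to all genes as they were. The cytosolic MB over OM median, so taken, was -0.35 with housekeeping, spike-in or no scaling. The deposited value table matched the signals used in 130128 of 130128 values, so it was no separate check. How many of the 275 were free to change was not counted. The 6 genes past 2-fold below OM, and the same 6 with MARS below NM, stayed past 2-fold under all 14 alternatives run gene by gene. Genes near the limit crossed it: EPRS ran from -1.28 to -0.76 and NARS from -1.28 to -0.95 for MB over NM, and TARSL2 from 0.84 to 1.15 for MB over OM. The all-gene median for MB over OM ran from -0.16 with spike-in scaling to 0.14, so small ratios have no settled sign.

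Cytosolic genes past 2-fold higher in MB than OM numbered 0 with 75th-percentile, quantile or spike-in scaling or with compartment read from the name suffix, and 2 at 1.5-fold. Mitochondrial ones numbered 0 with 75th-percentile, quantile, no or spike-in scaling, normexp or unsubtracted signals, and 2 with the suffix rule or at 1.5-fold. Higher in MB than NM were 1 cytosolic gene with spike-in scaling, and 0 mitochondrial genes with normexp, unsubtracted signals or both arrays required, 2 with the suffix rule and 5 at 1.5-fold. For NM against OM, 1 cytosolic gene was lower without scaling and at 1.5-fold, 6 were higher at 1.5-fold, and 1 mitochondrial gene was lower and 1 higher. At 5-fold all counts in MB were 0. Medians below are relative to that of all genes. For MB over NM they became -0.67 (quantile), -0.66 (no filter) and -0.86 (suffix rule) for cytosolic genes, and 0.15 and 0.19 (quantile, no filter) for mitochondrial genes. For NM over OM the cytosolic median became 0.20 (quantile), 0.26 (no filter) and 0.42 (without GARS and KARS), and the mitochondrial one -0.15 (no filter). For MB over OM they became -0.28 and 0.089 without the filter. The cause was not tested. With TGATGCAA, 0 mitochondrial promoters matched. Counting the FLJ12118 probes as CARS2, an alternative chosen after seeing the data, added a pair with the lower ratio in the cytosolic gene (14 against OM, 15 against NM) and took the mitochondrial MB over OM median, relative to all genes, from 0.014 to -0.014, less than the technical SD. Pairs were not recomputed under the suffix rule, which gives no one-to-one partners. No paired analysis was possible because each population has 1 array.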
